A study of Mus musculus with 96 samples.

Results

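The data described here are the RNA-seq libraries of all 96 samples of the series, 96 of 96, ordered by how many intact Msh6 alleles each mouse carried according to its genotype label. Mice of 6 genotypes on C57BL/6 were sampled at 6 months of age, with 8 mice in each (4 males and 4 females), and the striatum and the cerebral cortex of every mouse were sequenced. The 2 intact alleles were carried by the wild type mice and by the Het (Q140) KI mice, which have 1 knock-in Huntington's disease allele of Htt (Q140). A single intact allele was carried by the Msh6+/- mice and by Het (Q140) KI X Msh6+/- mice. No intact allele was carried by the Msh6-/- mice and by Het (Q140) KI X Msh6-/- mice. Each dose of 2, 1 or 0 alleles therefore held 16 mice in each tissue, 8 with Q140 and 8 without, and no group carried another named allele or treatment. The labels do not say which part of Msh6 is altered, nor whether the loss was limited to any cell type.

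Msh6 encodes a DNA mismatch repair protein that takes part in recognising base mismatches and small loops in DNA. Its relative Msh3 takes part in recognising larger loops, and Pms2, Pms1 and Mlh3 are subunits of the MutL complexes that act after recognition. Mismatch repair proteins act on expanded CAG repeats such as the one in the Q140 allele, and the striatum is the brain region most affected in Huntington's disease.

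The promoters of 3 genes are shown because the results turn on them: Msh6 is the altered gene, Nat8f2 had the largest slope of any gene whose call did not rest on 1 mouse, and Nat8f4, a neighbour of Nat8f2 from the same acetyltransferase family, also rose. Each line gives the 250 bases before the RefSeq start of the gene on GRCm38.p6, written 5′ to 3′ on the gene's strand. The Msh6 stretch is chr17:87974800-87975049 on the plus strand, the Nat8f2 stretch is chr6:85869138-85869387 on the minus strand, and the Nat8f4 stretch is chr6:85904939-85905188 on the minus strand. Capitals mark GC boxes (GGGCGG or its reverse CCGCCC) and CCAAT boxes (CCAAT or its reverse ATTGG), with both strands searched and overlapping matches counted.
Msh6: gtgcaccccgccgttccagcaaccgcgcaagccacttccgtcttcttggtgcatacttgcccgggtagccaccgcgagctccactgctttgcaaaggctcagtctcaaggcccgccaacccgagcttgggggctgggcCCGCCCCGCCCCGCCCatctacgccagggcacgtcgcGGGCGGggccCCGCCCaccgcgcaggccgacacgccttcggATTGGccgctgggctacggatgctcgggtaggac
Nat8f2: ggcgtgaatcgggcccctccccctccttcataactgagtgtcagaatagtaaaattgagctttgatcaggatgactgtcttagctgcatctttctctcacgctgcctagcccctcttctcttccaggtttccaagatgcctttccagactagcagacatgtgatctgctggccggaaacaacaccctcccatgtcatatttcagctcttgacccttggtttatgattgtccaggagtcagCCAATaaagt
Nat8f4: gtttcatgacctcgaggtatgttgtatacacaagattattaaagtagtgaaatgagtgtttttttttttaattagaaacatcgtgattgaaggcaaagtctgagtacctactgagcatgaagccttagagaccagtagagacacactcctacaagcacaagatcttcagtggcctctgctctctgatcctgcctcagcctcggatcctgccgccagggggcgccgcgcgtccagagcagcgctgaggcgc
The Msh6 stretch holds 5 GC box matches, 1 CCAAT match and 27 CG pairs. The Nat8f2 stretch holds no GC box, 1 CCAAT match and 4 CG pairs, and the Nat8f4 stretch holds neither box and 10 CG pairs. Among 32851 promoters of the same length, 32.7% hold a GC box match and 33.8% a CCAAT match, and the median number of CG pairs is 6. These matches describe letters only.

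Total counts per library ran from 12.4 to 21.11 M in striatum and from 16.73 to 22.89 M in cortex, with overlapping ranges at all 3 doses. The dissections differed by their marker genes: a list of 40 striatal projection neuron genes summed to between 21631 and 38996 CPM in striatum and between 4469 and 5039 CPM in cortex. Cortical glutamatergic neuron genes summed to between 122 and 184 CPM in striatum and between 2458 and 2802 CPM in cortex. In bulk tissue a lower value can mean fewer cells of a type or less RNA per cell, and these cannot be told apart. All levels are CPM, the usual counts scaled to library size, after TMM (trimmed mean of M values) scaling. The slope is the log2 change for each intact Msh6 allele lost, with its standard error, from edgeR's quasi-likelihood test with Q140 and sex in the fit. A gene is called at a Benjamini-Hochberg adjusted p under 0.05 over all genes tested in the tissue.

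The altered gene itself fell at each step in both tissues. In striatum, Msh6 (ENSMUSG00000005370, chr17:87975062-87990892) ran from 14.6 to 20.1 CPM with a median of 18.3 at 2 alleles, from 12 to 15.6 with a median of 13.9 at 1 allele, and from 6.93 to 11.1 with a median of 8.03 at 0 alleles. In cortex the 2-allele mice ran from 18.2 to 21.8 CPM (median 19.7), the 1-allele mice from 11.9 to 16.3 (median 13.7) and the 0-allele mice from 7.33 to 10.1 (median 8.56). The 3 doses did not overlap in cortex, and in striatum only the 2-allele and 1-allele ranges overlapped, through 3 of the 16 mice with 1 allele. The slope was -0.57 ± 0.03 in striatum (adjusted p = 1.4e-22) and -0.60 ± 0.02 in cortex (adjusted p = 2.84e-32). Reads from the locus were thus still counted in the mice labelled Msh6-/-.

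Across all genes, the trend with Msh6 dose was called for 51 of 17503 genes in striatum (0.291%), 21 higher and 30 lower as alleles were lost, and for 49 of 17622 genes in cortex (0.278%), 25 higher and 24 lower. The slope was under 0.2 in size for 19 of the striatal and 17 of the cortical genes, and at least 0.5 in size for 16 and 15. The median slope over all genes tested was 0.00078 in striatum and 0.00013 in cortex. The tissues shared 27 called genes, which is 52.9% of the striatal and 55.1% of the cortical calls, and all 27 moved in the same direction (14 higher and 13 lower). Striatum and cortex came from the same mice, so this overlap is not a repeat in other animals.

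Mice with 0 alleles carried higher animal numbers. The prefix of the animal number had a median of 18.5 (13 to 29) at 2 alleles, 18.5 (13 to 26) at 1 allele and 25.5 (14 to 38) at 0 alleles, and 7 of the 16 mice with 0 alleles had a prefix that no 2-allele mouse shared. The labels do not say what the prefix marks. With the prefix as a factor, edgeR called 20 genes in striatum, all among the 51, and 26 in cortex, 25 of them among the 49. Of the called genes picked by the naming rule given under the processing, 15 of 36 in striatum and 22 of 39 in cortex remained called. All of these 36 and 39 kept their direction, and the median slope was 0.896 of its former size in striatum and 0.919 in cortex. Not all of them are described here, and some calls described here, such as Mcfd2, Tprkb and Bub1b in striatum, are not among them. The part of the prefix in the calls was not tested.

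To ask where along the dose a gene changed, the share of its full change reached at 1 allele was taken on the CPM scale, with a 95% Fieller interval; 50% is a straight line. A gene is described as stepwise where the interval lies between 0 and 100%, and as changed only at 0 alleles where the interval holds 0 and lies below 50%. By these rules, 22 striatal genes were stepwise (4 higher, 18 lower), 9 changed only at 0 alleles (8 higher, 1 lower) and 20 were unresolved. In cortex, 18 genes were stepwise (7 higher, 11 lower), 13 changed only at 0 alleles (11 higher, 2 lower) and 18 were unresolved. The classes were set without the animal number prefix. Its median was the same at 2 and 1 alleles (18.5) and higher at 0 alleles (25.5), and the part of the prefix in the classes was not tested. In neither tissue did the interval of a called gene lie wholly above 50%. The interval lay wholly below 50% for 10 striatal and 15 cortical genes and held 50% for 39 and 34. The median share was 38.8% in striatum and 36.3% in cortex. By this measure the genes that changed only at 0 alleles were mostly higher, 8 of 9 in striatum and 11 of 13 in cortex. This split by direction depends in part on the CPM scale. Equal steps on the log2 scale give a share under 50% for a rise and over 50% for a fall. The interval also takes 1 spread per gene, pooled over the 3 doses, although the spread can differ between them. In cortex the SD of Col5a2, which rose, was 0.457, 0.753 and 2.42 CPM at 2, 1 and 0 alleles. That of Znf41-ps, which fell, was 0.432, 0.327 and 0.307 CPM. The part of unequal spread in the classes was not tested.

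**Figure D1:**
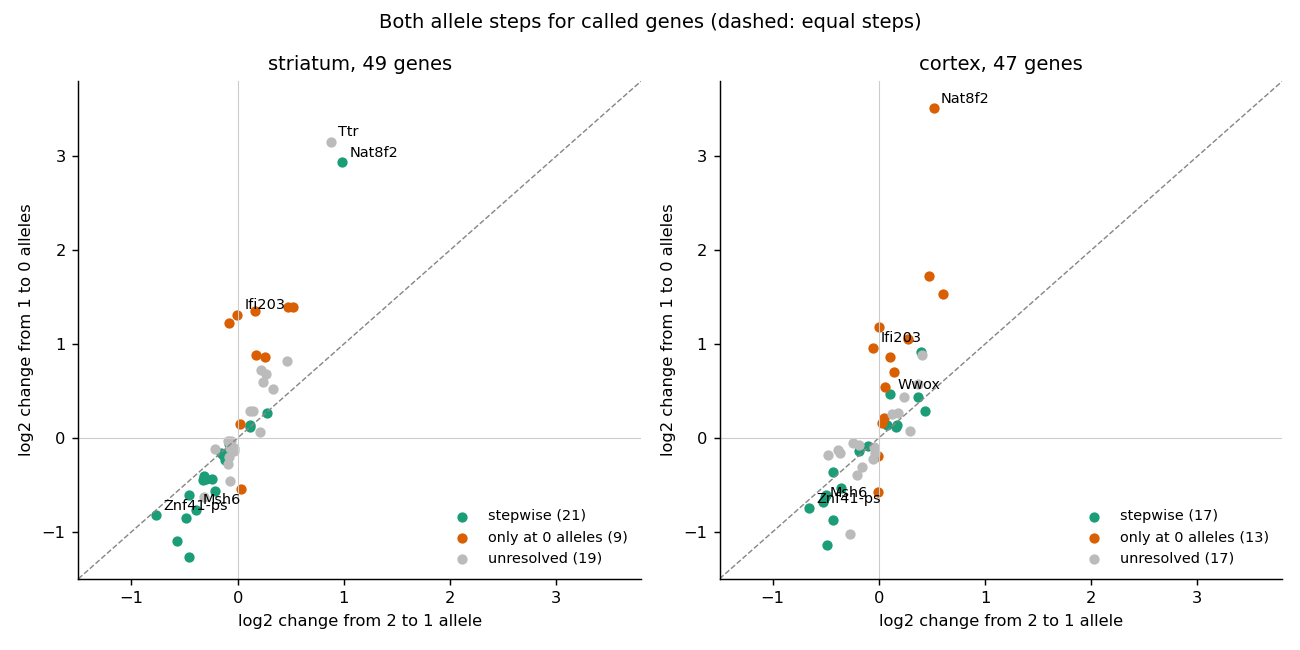
Log2 change from 2 to 1 allele (x axis) against the log2 change from 1 to 0 alleles (y axis) for the called genes drawn (49 in striatum and 47 in cortex), coloured by class, with the dashed line marking equal steps. Nat8f2 stands far above the dashed line in both panels, as does Ttr in striatum, which rests on 1 mouse, and Msh6 fell at both steps.

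The single steps were called for far fewer genes than the whole trend. From 2 to 1 allele, 4 genes were called in striatum (0.0229%), among them Msh6, Nat8f2 and Znf41-ps, and 2 in cortex (0.0113%), among them Msh6. From 1 to 0 alleles, 16 genes were called in striatum (0.0914%) and 19 in cortex (0.108%). Full loss, 0 against 2 alleles, gave 51 genes in each tissue (0.291% in striatum and 0.289% in cortex). Whether the second step differed from the first on the log2 scale was tested directly, and 2 genes passed in each tissue (0.0114% in striatum and 0.0113% in cortex): Nat8f2 in both, Ifi203 in striatum and Wwox in cortex. With the numeric prefix of the animal number in the fit, 1 gene passed in cortex.

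**Figure D2:**
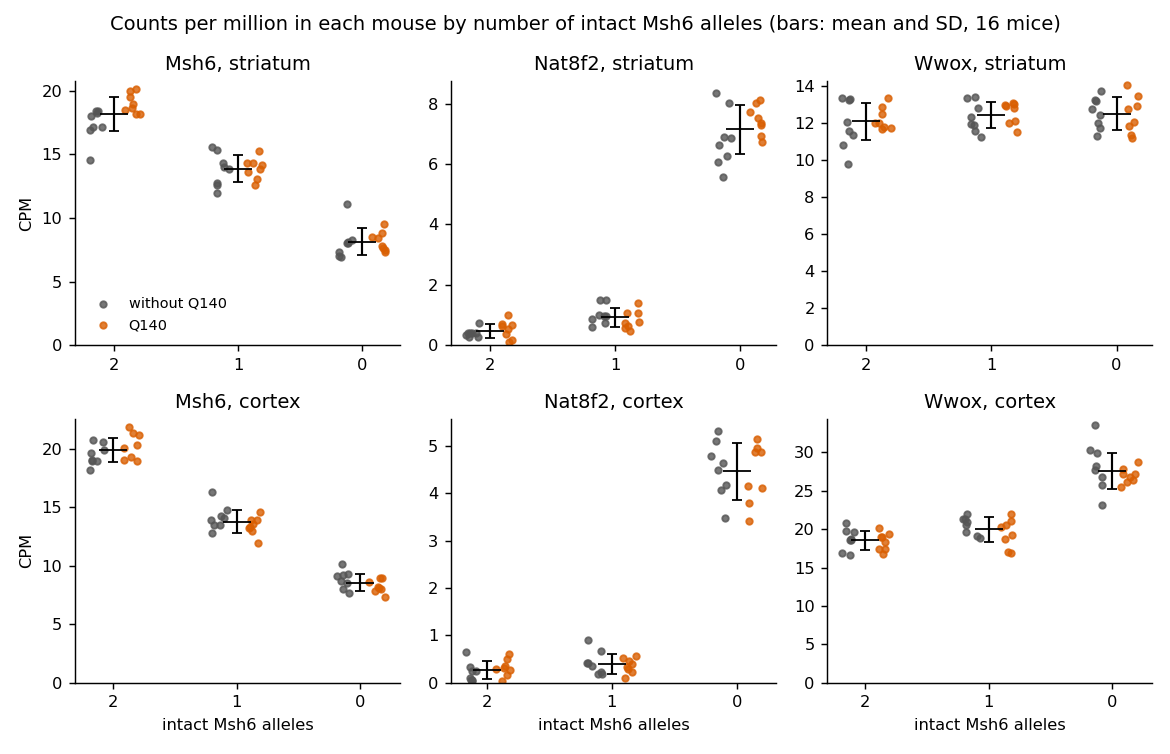
CPM of Msh6, Nat8f2 and Wwox in every mouse (y axis) at 2, 1 and 0 intact Msh6 alleles (x axis) in striatum and cortex; grey points are mice without Q140, orange points mice with Q140, and bars give the mean and SD of 16 mice. Nat8f2 at 0 alleles ran from 5.57 to 8.34 CPM in striatum against at most 1.49 at 1 allele, and Wwox separated the 0-allele mice in cortex and not in striatum.

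Nat8f2 (ENSMUSG00000033634, chr6:85865422-85869158), a member of the N-acetyltransferase 8 family, had the largest slope in cortex, and in striatum the largest apart from Ttr, whose call rested on 1 mouse. In striatum it ran from 0.110 to 1.01 CPM (median 0.396) at 2 alleles, from 0.470 to 1.49 (median 0.912) at 1 allele and from 5.57 to 8.34 (median 7.10) at 0 alleles. In cortex the ranges were 0.046 to 0.645 CPM (median 0.264), 0.105 to 0.912 (median 0.377) and 3.42 to 5.31 (median 4.57). Every mouse with 0 alleles lay above every other mouse in both tissues. The slope was 2.23 ± 0.10 in striatum (adjusted p = 6.04e-25) and 2.50 ± 0.13 in cortex (adjusted p = 5.96e-22). The share reached at 1 allele was 6.87% (1.43 to 12.1) in striatum, which counts as stepwise, and 2.93% (-3.64 to 9.11) in cortex, which counts as changed only at 0 alleles. On the log2 scale the second step exceeded the first by 1.95 ± 0.28 in striatum (adjusted p = 9.53e-05) and by 2.99 ± 0.39 in cortex (adjusted p = 8.2e-06). With and without Q140 the mean at 0 alleles was 7.46 ± 0.493 and 6.83 ± 0.944 CPM in striatum (SD, n = 8 each).

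Nat8f2 lies in a stretch of chromosome 6 with 3 other called genes, and these did not all move the same way. Nat8f4 ran from 9.09 to 14.2 CPM (median 12.2) at 2 alleles, 12.3 to 15.2 (median 14.0) at 1 and 11.5 to 17.0 (median 14.5) at 0 in striatum, with overlap between all doses. Its slope was 0.13 ± 0.03 in striatum and 0.18 ± 0.03 in cortex, and 76.4% (40.5 to 123) and 79.6% (46.6 to 123) of the change was reached at 1 allele. Nat8f3 rose in striatum (slope 0.27 ± 0.06), and Tprkb, which encodes a partner of the TP53RK kinase, fell slightly there (slope -0.07 ± 0.01). With the prefix as a factor the striatal calls of Nat8f4 and Nat8f3 were lost (adjusted p = 0.063 and 0.129), and the Nat8f3 call was lost in 2 of 48 fits that left out 1 mouse (adjusted p up to 0.0632, without mouse 21-3). Members of the Nat8f family resemble each other, so reads may be split between them and the values are uncertain.

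Genes close to Msh6 on chromosome 17 were called more often than genes elsewhere. Of 78 genes tested within 10 Mb (megabases) of Msh6, itself included, 5 were called in striatum (6.41%) and 6 in cortex (7.69%), against 0.139% and 0.138% on the rest of chromosome 17 and 0.269% and 0.25% on other chromosomes. All of these calls lay within 5 Mb. Prkce, which encodes protein kinase C epsilon, ran in cortex from 388 to 495 CPM (median 453) at 2 alleles, 368 to 474 (median 419) at 1 and 373 to 435 (median 393) at 0, and its slope was -0.09 ± 0.01 in cortex and -0.06 ± 0.01 in striatum. Rhoq, which encodes a small GTPase, rose in both tissues (slope 0.09 ± 0.01 in striatum and 0.11 ± 0.01 in cortex). Its cortical ranges were 31.8 to 42.4 CPM (median 34.8), 32.6 to 42.0 (median 37.0) and 36.6 to 44.8 (median 41.0). Ranges of both genes overlapped at every dose. Mcfd2 fell in striatum (slope -0.07 ± 0.01), and Ttc7 fell in cortex (slope -0.16 ± 0.03). Genes around Msh6 thus moved in both directions. The striatal Rhoq call was lost with the prefix as a factor (adjusted p = 0.171).

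**Figure D3:**
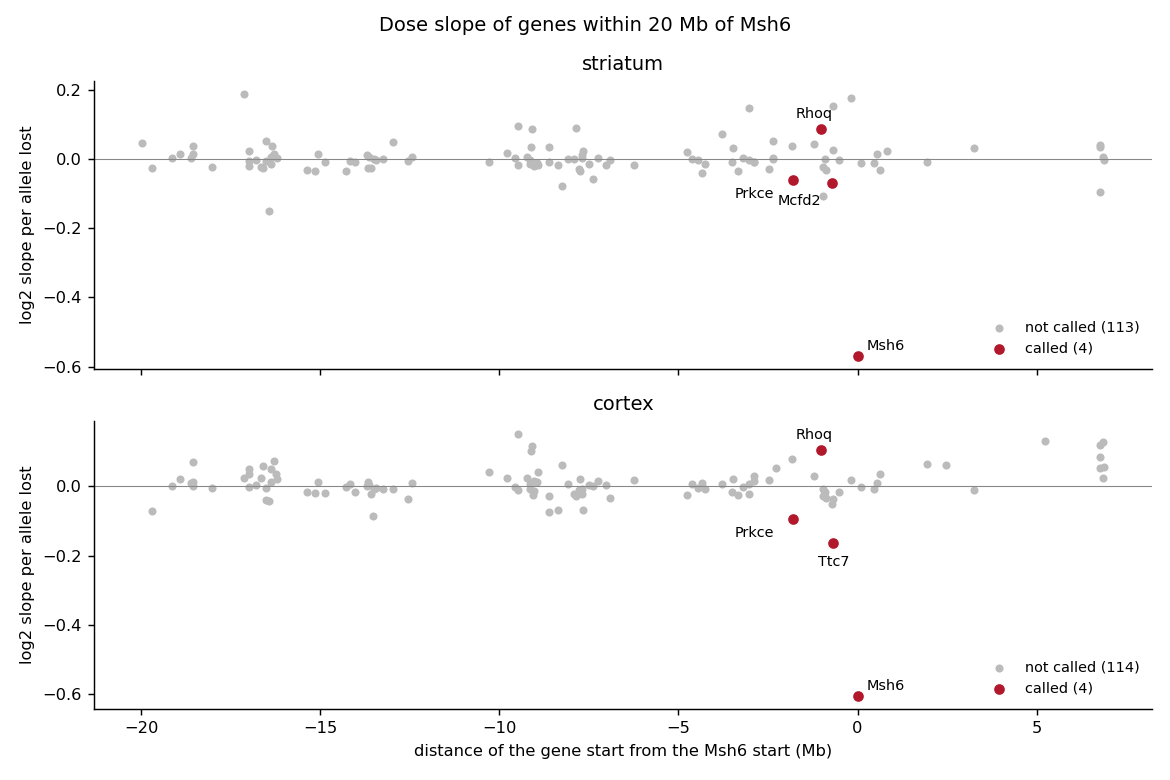
Slope per intact allele lost (y axis, log2) of the genes drawn within 20 Mb of Msh6 against the distance of its start from that of Msh6 (x axis, Mb), one panel per tissue; red points are called genes, of which 4 are drawn in each tissue, and grey points the others. The called genes drawn include Msh6 and all lie within 5 Mb of it.

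The mismatch repair genes Msh3, Mlh3, Pms1 and Pms2 and the nuclease gene Fan1 were not called in either tissue. The mean of Msh3 was 27.7 ± 2.7, 27.8 ± 2.05 and 27.0 ± 2.29 CPM at 2, 1 and 0 alleles in striatum (SD, n = 16 each). Htt, the gene of the Q140 knock-in, was at 230 ± 12.6, 228 ± 17.9 and 229 ± 12.9 CPM in striatum and was not called. The list of 26 mismatch repair genes had a median slope of -0.00058 over the 25 tested in striatum and 0.0069 over the 24 tested in cortex.

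Wwox, which encodes a WW-domain oxidoreductase, rose with Msh6 loss in cortex and was not called in striatum. Its cortical level ran from 16.6 to 20.8 CPM (median 18.7) at 2 alleles, 16.8 to 22.0 (median 20.4) at 1 and 23.1 to 33.5 (median 27.2) at 0. In striatum the same mice gave 9.76 to 13.4 (median 12), 11.3 to 13.4 (median 12.6) and 11.2 to 14.1 CPM (median 12.6). Every cortical 0-allele sample exceeded every other cortical sample, whereas the striatal ranges overlapped throughout. The cortical slope was 0.29 ± 0.02 (adjusted p = 2.17e-13). On the CPM scale, 15.5% (1.67 to 28.0) of the cortical change was reached at 1 allele. The second step exceeded the first by 0.36 ± 0.07 on the log2 scale (adjusted p = 0.0171). Of the 2 cortical genes that passed this test, Nat8f2 and Wwox, only 1 passed with the numeric prefix in the fit. The slope in striatum was lower than in cortex by a difference of -0.27 ± 0.03 (adjusted p = 4.29e-09 in a fit without an animal term). With the animal as a block the adjusted p was 3.03e-08 by the same edgeR test. The cortical mean at 0 alleles was 28.2 ± 3.15 CPM without Q140 and 27.0 ± 1.00 with it (SD, n = 8 each).

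By the rule on the share at 1 allele, genes classed as changed only at 0 alleles in both tissues were the 2 annotated genes named 1700030C10Rik, Ifi203, Mndal and Pcdha8, all of them higher. 1700030C10Rik (ENSMUSG00000099759), a transcript of chromosome 12 with no assigned function, ran in striatum from 0.474 to 7.09 CPM (median 1.45) at 2 alleles, 1.01 to 5.01 (median 2.94) at 1 and 3.90 to 12.2 (median 7.32) at 0. In cortex it ran from 0.111 to 4.95 (median 0.773), 0.415 to 3.27 (median 1.81) and 2.78 to 8.68 (median 5.81). The 2-allele and 0-allele ranges overlapped only through mouse 14-2, a Q140 mouse that was highest of the 2-allele mice in both tissues; the other 15 reached at most 3.24 CPM in striatum and 2.48 CPM in cortex. The 1-allele range overlapped both. The median was already higher at 1 allele than at 2 in both tissues. In cortex, 0 or 1 allele together against 2 was called (adjusted p = 0.00803 by edgeR's quasi-likelihood test). The class rests on means, and the 2-allele mean includes mouse 14-2. The part of this mouse in the class was not tested. The slope of this 1700030C10Rik record was 1.00 ± 0.10 in striatum and 1.19 ± 0.12 in cortex. The second record of that name (ENSMUSG00000091071) overlaps it and rose alike (slope 0.99 ± 0.11 and 1.15 ± 0.13), and reads cannot be divided between them with certainty.

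Ifi203 and Mndal belong to the interferon-inducible Ifi200 gene family on chromosome 1. Ifi203 in striatum ran from 0.663 to 2.18 CPM (median 1.37) at 2 alleles, 0.682 to 2.02 (median 1.47) at 1 and 2.12 to 5.71 (median 3.39) at 0. In cortex its ranges were 0.772 to 2.91 (median 1.58), 0.715 to 2.85 (median 1.56) and 2.22 to 4.16 (median 3.13). All but 1 of the striatal 0-allele mice lay above the 2-allele range, and none of the 1-allele mice did. The slope was 0.70 ± 0.08 in striatum and 0.48 ± 0.07 in cortex, and -0.647% (-22.0 to 16.9) of the striatal change was reached at 1 allele; the second step exceeded the first by 1.32 ± 0.23 there (adjusted p = 0.00551). Mndal had a median of 0.768, 0.698 and 1.77 CPM in striatum at 2, 1 and 0 alleles (slope 0.61 ± 0.09) and 0.951, 1.01 and 1.73 in cortex (slope 0.44 ± 0.07). Of 22 interferon response genes, 20 were tested in each tissue and none was called, with a median slope of -0.04 in striatum and -0.02 in cortex. With the prefix as a factor, Ifi203 remained called in striatum and was lost in cortex (adjusted p = 0.132), and Mndal was lost in both (adjusted p = 0.281 and 0.336). Family members share sequence, so the split of reads between them is uncertain.

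The clustered protocadherins, cell-surface proteins that give neurons individual recognition codes, moved in both directions within one locus on chromosome 18. Of 59 genes tested over the 0.826 Mb from the first to the last called gene there, 9 were called in either tissue, 3 of the alpha cluster higher and 6 others lower. The calls themselves set this span, so its share is not comparable with the 73 of 18319 genes called in all (0.398%). Pcdha8 in striatum ran from 0.244 to 1.79 CPM (median 0.730) at 2 alleles, 0.195 to 1.66 (median 1.01) at 1 and 1.29 to 4.73 (median 2.43) at 0, a slope of 0.80 ± 0.10 in striatum and 0.64 ± 0.11 in cortex. Pcdha1 ran from 1.23 to 3.69 (median 1.62), 1.39 to 3.30 (median 2.24) and 2.26 to 9.22 CPM (median 3.82), a slope of 0.58 ± 0.08 in striatum and 0.66 ± 0.08 in cortex. For both genes the ranges overlapped between doses. In the gamma cluster Pcdhga11 fell in both tissues (slope -0.12 ± 0.02 in striatum and -0.14 ± 0.03 in cortex), and Pcdhga3 and Pcdhga10 fell in striatum (slope -0.16 ± 0.03 and -0.14 ± 0.03). The noncoding gene 3222401L13Rik fell in both (slope -0.33 ± 0.05 and -0.27 ± 0.06), from a median of 3.84 to 2.13 CPM in striatum. Pcdha1 stayed called in both tissues with the prefix as a factor, while Pcdha8 was lost in cortex (adjusted p = 0.0786) and the gamma genes Pcdhga3, Pcdhga10 and Pcdhga11 were lost in striatum (adjusted p = 0.137, 0.337 and 0.0875), Pcdhga11 also in cortex (adjusted p = 0.651). The remaining alpha gene, Pcdha2, was called in cortex alone (slope 0.23). Its call was lost in 31 of 48 fits that left out 1 mouse (adjusted p up to 0.133) and with the prefix as a factor. Pcdhb20 in striatum and Pcdhb15 in cortex were also lost with the prefix as a factor (adjusted p = 0.372 and 0.128). Protocadherin genes of the alpha cluster share their last exons, as do those of the gamma cluster, and reads there cannot be assigned with certainty.

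By the rule on the share at 1 allele, Col5a2 was classed in cortex as changed only at 0 alleles and Bub1b as stepwise. The direct test of the second step against the first on the log2 scale did not pass for either gene there. Its adjusted p was 0.608 for Col5a2 and 0.736 for Bub1b by edgeR's quasi-likelihood test. Col5a2, a fibrillar collagen gene, ran in cortex from 1.92 to 3.55 CPM (median 3.05) at 2 alleles, 1.58 to 4.62 (median 3.23) at 1 and 3.00 to 11.5 (median 5.68) at 0. Bub1b, a spindle checkpoint kinase gene, ran in cortex from 0.847 to 4.77 (median 2.71), 1.03 to 6.37 (median 3.74) and 4.65 to 8.97 CPM (median 6.90). For each, most 0-allele mice lay above the 2-allele range in cortex, 14 of 16 for Col5a2 and 15 of 16 for Bub1b. Col5a2 rose with a slope of 0.51 ± 0.08 in cortex and 0.42 ± 0.07 in striatum, and both calls were lost with the prefix as a factor (adjusted p = 0.324 and 0.328). Bub1b rose with a slope of 0.68 ± 0.08 in cortex and 0.43 ± 0.08 in striatum, and its cortical call remained (adjusted p = 0.00343). On the CPM scale, 22.4% (1.00 to 41.2) of its cortical change was reached at 1 allele.

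The stepwise falls included a group of neighbours on chromosome 4. Znf41-ps, a zinc finger pseudogene, ran in striatum from 0.933 to 2.41 CPM (median 1.49) at 2 alleles, 0.205 to 1.66 (median 0.952) at 1 and 0.225 to 1.56 (median 0.430) at 0, and 61.5% (43.2 to 80.9) of the change was reached at 1 allele. Zfp991 ran from 0.941 to 2.06 (median 1.41), 0.410 to 1.84 (median 0.988) and 0.161 to 1.17 CPM (median 0.588), with 46.4% (23.8 to 68.5). In both genes 15 of 16 mice with 0 alleles lay below the 2-allele range. Znf41-ps had a slope of -0.79 ± 0.08 in striatum and -0.70 ± 0.08 in cortex, Zfp991 -0.65 ± 0.08 and -0.63 ± 0.08, and Zfp992 -0.80 ± 0.11 and -0.76 ± 0.11. All of these stayed called in both tissues with the prefix as a factor. Zinc finger genes can resemble each other closely, so their read counts are uncertain.

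Other stepwise genes lay apart from these clusters. Rps4l, a ribosomal protein pseudogene by its annotation, fell from a median of 9.52 CPM (7.16 to 14.2) through 8.11 (5.65 to 11.1) to 5.48 (2.84 to 8.32) in striatum, a slope of -0.38 ± 0.05 there and -0.44 ± 0.06 in cortex. Rnf17, a germ cell gene of piRNA biology, fell in striatum from a median of 1.99 (1.04 to 3.29) through 1.5 (0.114 to 3.26) to 0.555 CPM (0 to 1.29), a slope of -0.81 ± 0.12. Rec8, the meiotic cohesin subunit and a neighbour of Rnf17 on chromosome 14, fell in both tissues (slope -0.37 ± 0.07 and -0.40 ± 0.07). In all 3 genes the doses overlapped. Oplah, which encodes 5-oxoprolinase of glutathione turnover, rose in cortex from a median of 29.1 (23.9 to 32.4) through 31.6 (27.1 to 37.5) to 34.5 CPM (30.7 to 38.4), a slope of 0.14 ± 0.02, and by 0.12 ± 0.02 per allele in striatum. Sec24d, a component of the COPII vesicle coat, fell in striatum from a median of 16.0 through 14.7 to 12.6 CPM (slope -0.17 ± 0.03). With the prefix as a factor, the striatal calls of Rec8, Oplah and Sec24d were lost (adjusted p = 0.209, 0.141 and 0.0641).

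**Figure D4:**
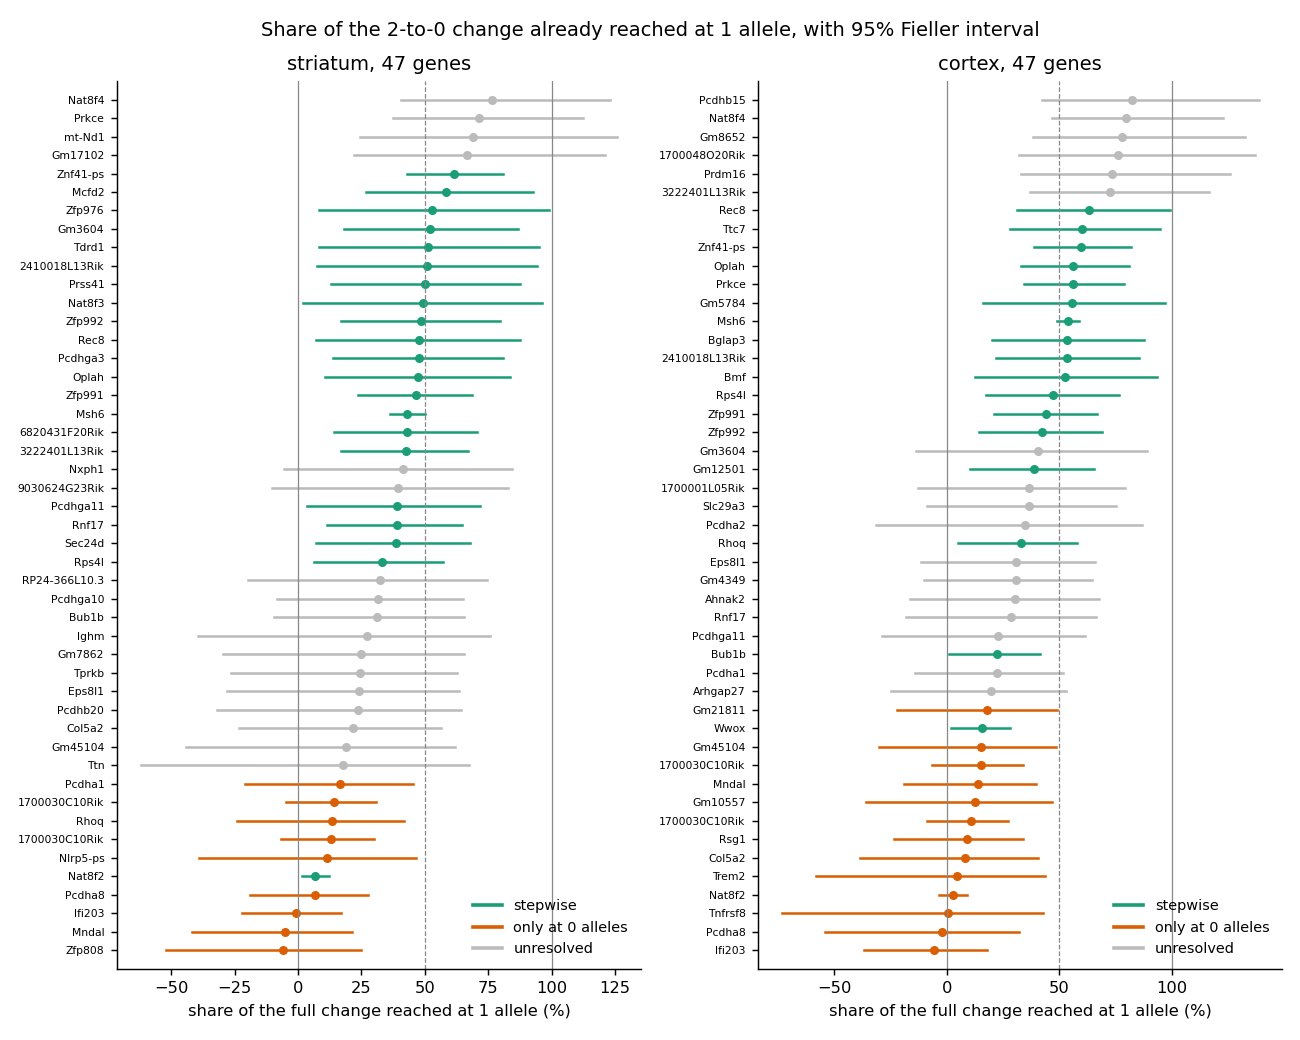
Share of the full change reached at 1 intact allele (x axis, percent, on the CPM scale) for the called genes drawn that have a bounded interval, with 95% Fieller intervals, one panel per tissue with 47 genes each; 50% is a straight line. No interval lies wholly above 50%, and those of 1700030C10Rik, Ifi203 and Pcdha8 hold 0 and lie below 50% in both tissues.

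Called genes lay close to one another more often than genes tested in general. Over both tissues 73 genes were called, and 38 of them fell into 11 runs in which each gene starts within 1 Mb of the next. In striatum, 54.9% of called genes had another called gene within 1 Mb, against 4.22% of genes tested, and in cortex 51% against 5.38%. Away from chromosome 17 the shares were 53.3% against 3.98% in striatum and 47.6% against 5.38% in cortex. Beyond the runs already described, the runs held Ahnak2 with Ighm on chromosome 12, Zfp808 with Gm3604 on chromosome 13, Bmf with Bub1b on chromosome 2, and the pseudogenes RP24-366L10.3, Gm21811 and 6820431F20Rik on chromosome 8. In 4 of the 11 runs, members moved in both directions. The runs pool the calls of both tissues: Ahnak2 was called in cortex and Ighm in striatum. The Ighm call was lost in 19 of 48 fits that left out 1 mouse (adjusted p up to 0.0804). With the prefix as a factor, the cortical calls of Ahnak2 and Bmf were lost (adjusted p = 0.896 and 0.738). The striatal calls of Ighm and Zfp808 were lost as well (adjusted p = 0.991 and 0.766). Some neighbours share sequence or overlap, and the part of shared reads in this count was not tested.

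For the marker lists below, called members are to be read against the 0.291% and 0.278% of all genes called in striatum and cortex, at which a list of this length may hold none. Of 12 microglial genes, Trem2, a microglial receptor gene, fell in cortex (slope -0.10 ± 0.02, median 9.05, 9.32 and 8.08 CPM at 2, 1 and 0 alleles). The median slope of the microglial list was -0.03 in each tissue, and its summed level ran from 425 to 543 CPM at 2 alleles and 406 to 531 at 0 in striatum, and from 349 to 415 and 321 to 382 CPM in cortex, and the part of microglia in this call was not tested. The Trem2 call was lost in 12 of 48 fits that left out 1 mouse (adjusted p up to 0.071, without mouse 32-1) and with the prefix as a factor (adjusted p = 1). None of the 40 striatal projection neuron genes was called in either tissue, at a median slope of 0.0069 in striatum and -0.0013 in cortex. The astrocyte, oligodendrocyte, oligodendrocyte precursor, endothelial, pericyte and fibroblast, interneuron, cortical glutamatergic, and thalamic and septal lists had no called member either, at median slopes from -0.01 to 0.04.

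Against the same shares of 0.291% and 0.278%, no member was called among 34 base excision and strand break repair genes in striatum and 33 in cortex, among 22 and 21 p53 target and checkpoint genes, or among immediate early, oxidative phosphorylation, and heat shock and chaperone genes. The median slope of the p53 list was -0.0042 in striatum and -0.01 in cortex, and that of the immediate early genes -0.03 and -0.06. The 4 blood genes tested had median slopes of 0.54 and 0.52 without a call, and their summed level reached 51.9 CPM in striatum at 0 alleles against 18.7 at 2 alleles. The choroid plexus and ependyma list had 1 called member of 8 tested in striatum, Ttr, and that call rested on 1 mouse. Ttr, the transthyretin carrier protein gene, was at 2491 CPM in the striatum of mouse 21-3 and at most 23.1 CPM in the other 15 mice with 0 alleles. Without mouse 21-3 its slope was 0.22 (adjusted p = 0.962). The summed choroid plexus list ran from 23.6 to 2818 CPM at 0 alleles and from 27.0 to 49.5 CPM at 2 alleles. Slc2a12, a glucose transporter gene called in striatum (slope 0.66 ± 0.14), was at 22.2 CPM in mouse 21-3 against a median of 2.03 at 0 alleles, and without that mouse its slope was 0.33 (adjusted p = 0.00296). With the prefix as a factor its call was lost (adjusted p = 0.242).

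Mice with and without Q140 share no animal, so each background gives a trend of its own. Without Q140, 16 genes were called in striatum (0.0914%) and 21 in cortex (0.119%). With Q140 the counts were 25 (0.143%) and 23 (0.131%). In striatum 11 genes were called in both backgrounds, 68.8% of the calls without Q140 and 44% of those with it, and in cortex 14, or 66.7% and 60.9%. Among genes called in the pooled trend, the slope had the same sign in both backgrounds for 50 of 51 in striatum, with Ttr as the exception, and for 49 of 49 in cortex. Msh6 had a slope of -0.54 without and -0.60 with Q140 in striatum and Nat8f2 2.25 and 2.21. In striatum 27 of the 51 trend genes were also called for Q140 in the same fit (52.9%), against 52.7% of all genes tested, and in cortex 0 of 49, against 1.5%.

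A difference in slope between the backgrounds was called for 1 gene in striatum (0.00571%) and for none in cortex (0%). The gene was Dennd1b, which encodes an exchange factor for Rab35. Its striatal mean without Q140 was 19.3 ± 0.745 CPM at 2 alleles, 18.0 ± 0.742 at 1 and 16.7 ± 1.71 at 0 (SD, n = 8 each). With Q140 it was 18.2 ± 1.08, 18.9 ± 1.04 and 20.0 ± 1.22 CPM. The slopes ran in opposite directions and differed by 0.17 ± 0.03 (adjusted p = 0.0413 by edgeR's quasi-likelihood test). No gene was called with the numeric prefix in the fit (900 genes at an unadjusted p under 0.05), nor without mouse 21-3 (789 genes). In cortex 687 genes had an unadjusted p under 0.05, the smallest adjusted p was 0.999, and DESeq2 also called 0 genes.

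The slope was tested for a difference between the tissues over 18440 genes, and 4 passed (0.0217%), among them Wwox, described above, Ttc7 and Kcnj13. Ttc7, a scaffold of the plasma membrane phosphatidylinositol kinase complex, ran in cortex from 9.91 to 16.0 CPM (median 12.6) at 2 alleles, 9.42 to 13.6 (median 11.1) at 1 and 8.33 to 12.3 (median 10.2) at 0. In striatum its ranges were 12.5 to 21.8 (median 16.1), 12.7 to 19.8 (median 17.2) and 12.9 to 22.3 CPM (median 16.7), and it was not called there. The difference was 0.19 ± 0.04 (adjusted p = 0.00437). Kcnj13, a potassium channel gene, had between 0 and 7 counts in the striatum of every mouse except 21-3, which had 351, and its difference of 2.43 ± 0.43 (adjusted p = 0.00101) fell to 0.07 without that mouse (adjusted p = 1). The fit behind these values held no animal term and took the 2 libraries of a mouse as independent. With the animal as a block, 3 genes passed (0.0163%), among them Wwox and Ttc7 (adjusted p = 1.91e-05 for Ttc7 by the same edgeR test). Kcnj13 was not among the genes that passed (adjusted p = 0.961).

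Both tissues of a mouse tended to deviate together from the mean of their dose. For the 27 genes called in both tissues, the residual log2(CPM + 0.5) after dose, Q140 and sex was compared between striatum and cortex of the 48 mice, with 100000 permutations within dose. Pearson's r was above 0 for all 27 (median 0.406). Over all 16806 genes tested in both tissues, r had a median of 0.159 and was above 0 for 78.7%, with 0.538 as the 95th percentile. Of the 27, 18 passed at a Benjamini-Hochberg adjusted p under 0.05, 16 of them with Spearman's rho as well. Eps8l1, which encodes a relative of the actin-capping adaptor Eps8, had r = 0.937 and rho = 0.887 (adjusted permutation p = 5.4e-05 for both), and r = 0.900 without the 2 mice farthest from the median. Its r was 0.918, 0.942 and 0.946 within the 2-, 1- and 0-allele mice. In striatum Eps8l1 ran from 1.77 to 6.48 CPM (median 3.62) at 2 alleles, 0.916 to 8.75 (median 4.78) at 1 and 1.46 to 15.2 (median 7.17) at 0, so the doses overlapped while the slope was 0.48 ± 0.10 in striatum and 0.48 ± 0.09 in cortex. Its striatal call was lost with the prefix as a factor (adjusted p = 0.137), and its cortical call remained (adjusted p = 0.0229). Mouse 14-3, with 0 alleles, was low in both tissues, at 1.46 CPM in striatum and 2.45 CPM in cortex, and the other 15 mice of that dose were at 4.30 CPM or more and 5.81 CPM or more.

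The other genes ranged from a close relation to none that passed. For 1700030C10Rik (ENSMUSG00000099759) r was 0.791 and rho 0.718 (r = 0.693 without the 2 farthest mice; adjusted permutation p = 5.4e-05 for both). Rec8 had r = 0.631 and rho = 0.648 (r = 0.637; adjusted permutation p = 5.4e-05). For Msh6 itself r was 0.206 and rho 0.0859 (r = 0.135; adjusted permutation p = 0.229 and 0.62), which did not pass. For Mndal r was 0.0624 and rho 0.0595 (r = -0.00513; adjusted permutation p = 0.673 and 0.694), which did not pass either. The smallest raw p that these permutations can give is 1e-05. Both libraries of a mouse share its animal number prefix, and its part in the relation was not tested.

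**Figure D5:**
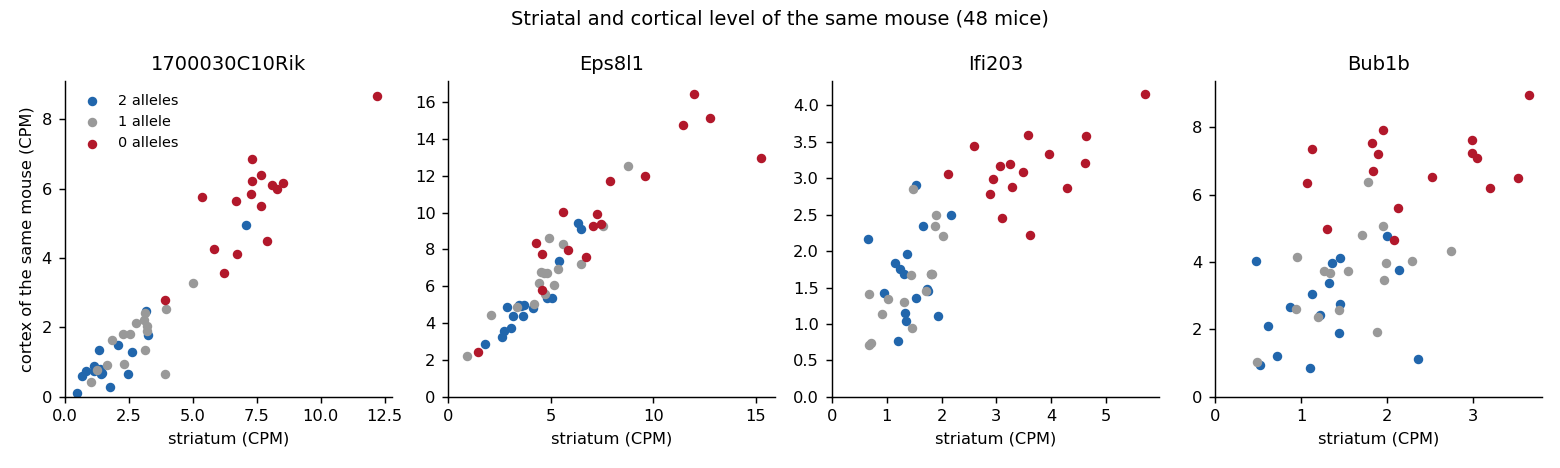
CPM in striatum (x axis) against CPM in cortex (y axis) of the same mouse for 1700030C10Rik, Eps8l1, Ifi203 and Bub1b, with 48 mice per panel marked by the number of intact Msh6 alleles. Eps8l1 follows one line through all doses, with mouse 14-3 low in both tissues at 1.46 and 2.45 CPM.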

How the data were processed

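RNA was extracted with an RNeasy kit and libraries were made with the TruSeq stranded protocol, per the labels' protocols. STAR 2.7.5c, SAMtools 1.10 and HTSeq 0.12.3 and the build GRCm38 (mm10) are named in the submitters' processing notes, and no source used here gives the annotation release or strand setting. The authors deposited raw counts per gene, and the FPKM values they deposited served only as an alternative unit. Each tissue was fitted alone with edgeR 4.0.16 in R 4.3.3 (TMM scaling, filterByExpr with a minimum count of 10, a minimum total of 15 and groups of 8). The model held the number of intact alleles lost, Q140 and sex, and the single steps used the dose as a factor. P-values measure the spread between mice. Coordinates are those of the GENCODE annotation on GRCm38, and promoters come from RefSeq on GRCm38.p6.

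The members and gene lists were chosen with earlier results of these data known. Named genes were Msh6, Htt, Fan1 and 6 mismatch repair genes; per tissue, from called genes with a proper symbol and an average log2 CPM of 1 or more, the 12 that rose most and the 12 that fell most by slope; the 15 called genes with the smallest p beyond 10 Mb from Msh6; the called genes that changed only at 0 alleles; up to 5 genes called in the departure, the first step, the interaction or the tissue difference; and up to 4 called members of each gene list. Members of runs of neighbouring genes outside that rule, such as Mcfd2, Tprkb and Gm3604, were named after their values were seen. Some genes that these rules pick or that are counted above are not reported here and not drawn. Alternatives were RLE scaling, no filter, DESeq2 1.42.0, limma 3.58.1 on FPKM, no sex term, the animal number prefix, other codings of dose, and mice left out. The trend fit was tested on simulated data. Animal numbers are shared by both tissues of a mouse per the labels. Residuals of the same animal had a median correlation of 0.166 (-0.0492 to 0.333) over 16806 genes, against -0.00519 between different animals, and 36 of 48 animals matched their own other tissue best.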

Additional observations from a re-analysis of the deposited data

Results flagged for a closer look

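Among 9 genes looked at mouse by mouse in 108 groups of 8 mice, 14 single mice stood apart from the rest of their group by Dixon's criterion. That criterion picks about 1 in 20 groups of normally distributed values by chance. The 9 genes were not drawn at random and include Ttr, whose outlying mouse is described above, so the count cannot be read against that rate. For Msh6 in striatum the mice picked were a Msh6-/- mouse at 11.1 CPM (24-3) and a wild type mouse at 14.6 CPM (16-2), and for Nat8f2 a wild type mouse at 0.734 CPM (20-2). For 1700030C10Rik they were the Q140 mouse 14-2 at 7.09 CPM in striatum and 4.95 CPM in cortex, the Msh6-/- mouse 14-3 at 12.2 CPM in striatum, and a wild type cortex at 2.48 CPM (18-1). For Eps8l1 the mouse 21-5 (Q140 with Msh6+/-) stood high in both tissues, at 8.75 CPM in striatum and 12.6 CPM in cortex, and the Q140 mouse 22-2 at 9.10 CPM in cortex.

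Ttr stood apart in 4 groups: at 9.02 CPM in the striatum of Q140 mouse 24-1, at 25.8 CPM in that of mouse 16-4 (Q140 with Msh6+/-), at 2491 CPM in that of mouse 21-3 (Q140 with Msh6-/-), and at 1.91 CPM in the cortex of mouse 32-4 (Q140 with Msh6-/-).

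By a test of the difference itself, the slope of Dennd1b in striatum differed by 0.17 between mice with and without Q140. Slopes differed between the tissues, striatum minus cortex, by -0.27 for Wwox, 0.19 for Ttc7 and 2.43 for Kcnj13. The Kcnj13 difference rested on mouse 21-3: without that mouse it was 0.07 and was not called. The Dennd1b difference was not called without mouse 21-3 or with the numeric prefix in the fit.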

How the results depend on the processing

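The trend counts stayed within 1.5 times of 51 and 49 under RLE scaling, DESeq2, FPKM, an adjusted p of 0.1, no sex term, 1 term per genotype and mouse 21-3 left out. They ran from 42 to 58 in striatum and 44 to 56 in cortex with each mouse left out in turn. No filter gave 81 in striatum. The prefix as a factor gave 20 and 26, and 0 or 1 allele together against 2 gave 16 and 25. In cortex the first step gave 6 by DESeq2. There the second step gave 35 at an adjusted p of 0.1, 38 by DESeq2 and 12 with the numeric prefix, which also gave 33 for full loss. The departure from a straight line gave 1 gene in cortex with the numeric prefix and 4 by limma on CPM. Without Q140 the numeric prefix left 9 in striatum and 9 in cortex, and the striatal interaction gave 0 with it and 0 without mouse 21-3. With the animal as a replicate block, the tissue difference gave 3 genes against 4. The alternatives without mouse 21-3 for the Q140 trend, the interaction and the tissue difference were chosen after seeing the data. The cause of these shifts was not tested.

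Leaving out 1 mouse ended no named call for 30 of 36 genes in striatum and 35 of 39 in cortex, and none of these 36 and 39 calls changed direction in the other settings tried. Slopes of genes that were not called lay near 0 and changed sign. In striatum these were Htt (0.0020 for 0 alleles against the rest; -0.0056 to 0.0020 with mice left out), Pms1 (0.0034, prefix factor), Mlh3 (-0.0067 for 0 or 1 against 2; -0.0046 to 0.0088) and Ttc7 (-0.014, prefix factor). In cortex, Htt gave -0.0050 and -0.0044 with the prefix, -0.030 for 0 or 1 against 2, and -0.0021 to 0.0064 with mice left out. Pms2 gave 0.0026 and 0.015 with the prefix. Msh3 gave -0.0059 with the numeric prefix, -0.00043 and -0.00037 on FPKM, -0.018 for 0 against the rest, -0.0021 without mouse 21-3, and -0.0071 to 0.0057 with mice left out. Kcnj13 gave 0.091 for 0 against the rest and -0.054 to 0.045.

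Genes under about 1 CPM rest on few reads per library, and their shares at 1 allele have wide intervals.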

Other observations

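Grouping the 1-allele mice with either end of the dose gave different counts. In striatum, 0 or 1 allele together against 2 alleles was called for 16 genes (0.0914%), and 0 alleles against 1 or 2 together for 50 (0.286%). In cortex the counts were 25 (0.142%) and 47 (0.267%). Among genes called in the trend, 12 in striatum and 17 in cortex had at least 12 of 16 mice with 0 alleles beyond the range of the 2-allele mice, and 2 and 4 had all 16.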
